A study of Mus musculus with 32 samples.

Results

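The genes of the urea cycle and of amino acid breakdown were listed by symbol, 53 in all, and their rows were read from a table of liver RNA-seq that holds 21880 genes. By symbol 51 of them had a row, *Mut* was found under its newer symbol *Mmut*, and *Gstz1x* had none, so 52 members are described. All 52 are annotated as coding genes, and they lie on 18 chromosomes. The livers came from WT mice, from mice that lack *Dnm1l* (L-*Dnm1l*–KO; DRP1 in the labels), from mice that lack *Mfn1* and *Mfn2* (DKO) and from mice that lack all 3 genes (TKO), at 2 and 6 months of age (2M and 6M). Each of these 8 groups has 4 libraries, 32 in all. The study's methods describe floxed alleles and an albumin-Cre transgene, which is used to delete genes in hepatocytes, and bulk liver RNA also holds that of other cells. The labels do not give the sex of the mice.

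The values described are the authors' mean normalized counts, 1 per gene over all libraries, in which counts were divided by size factors. The table has no column for a single library, genotype or age apart from the fold changes and *P* values of the authors' own comparisons, which were not used. No value per mouse, spread between mice, depth per library or difference between genotypes is therefore given, and the order of 2 members is the order of the authors' means with no error attached. Where members are compared, the mean was divided by the length of the gene's exons in kilobases (kb).

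A limit bears on all 52 values. The libraries keep the strand of the RNA, while the sources used here do not say with which strand setting reads were counted. With the opposite setting, a row holds reads from the other strand at that place and not the RNA of its gene, whether or not another gene is annotated there. Of the 21833 rows with a position, 4804 have exons that share bases with those of an oppositely transcribed coding gene. These rows held 83.8% of the summed means of the whole table, and they include 92 of the 100 highest rows. The levels below are therefore levels of the rows as deposited, and whether they measure the mRNAs of the members was not tested.

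Amino acids that are not needed for protein are broken down mainly in the liver. Aminotransferases and glutamate dehydrogenase gather their nitrogen, and the urea cycle, which begins in the mitochondrial matrix and ends in the cytosol, turns it into urea. The carbon skeletons enter the tricarboxylic acid cycle, gluconeogenesis or ketone synthesis, and many of the enzymes on the way are mitochondrial, among them the dehydrogenase complex of the branched-chain amino acids, the glycine cleavage system and the carboxylase and mutase that handle propionate.

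The limit on strand holds for the rows of cell type markers too, so they are described here and cannot check the tissue. All 9 hepatocyte markers had a mean normalized count of at least 10. They ran from 68.1 for *Hnf4a*, a hepatocyte transcription factor, to 4957.8 for *Alb*, which encodes albumin. Of the 5 macrophage markers 1 reached 10, and of the 5 stellate cell and 4 endothelial markers none did. The 4 cholangiocyte markers, the 2 B cell and 2 T cell markers with a row and the 1 neutrophil marker with a row were all under 1. The markers *Ms4a1*, *Cd3e*, *Ly6g* and *S100a8* had no row. The summed means were 9375.1 for hepatocytes, 131 for macrophages and at most 15.3 for any other type. Of the macrophage sum 121 came from *Csf1r*, a growth factor receptor gene whose exons share 873 bp with a coding gene on the opposite strand, and the other 4 macrophage markers were between 0.586 and 3.83.

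The members were well above the typical row. Their median was 10.2 mean normalized counts per kb of exon, against 0.547 over all rows with a position, and all 52 lay above that second value. Without division by length, 49 of the 52 (94.2%) had a mean of at least 10, against 20.2% of all rows. The lowest member was *Bckdhb* at 6.29 and the highest *Mat1a* at 467.6. The members together made up 0.395% of the 900450 mean normalized counts in the table, and the 6 with the highest means held 47.2% of the members' sum.

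**Figure D1:**
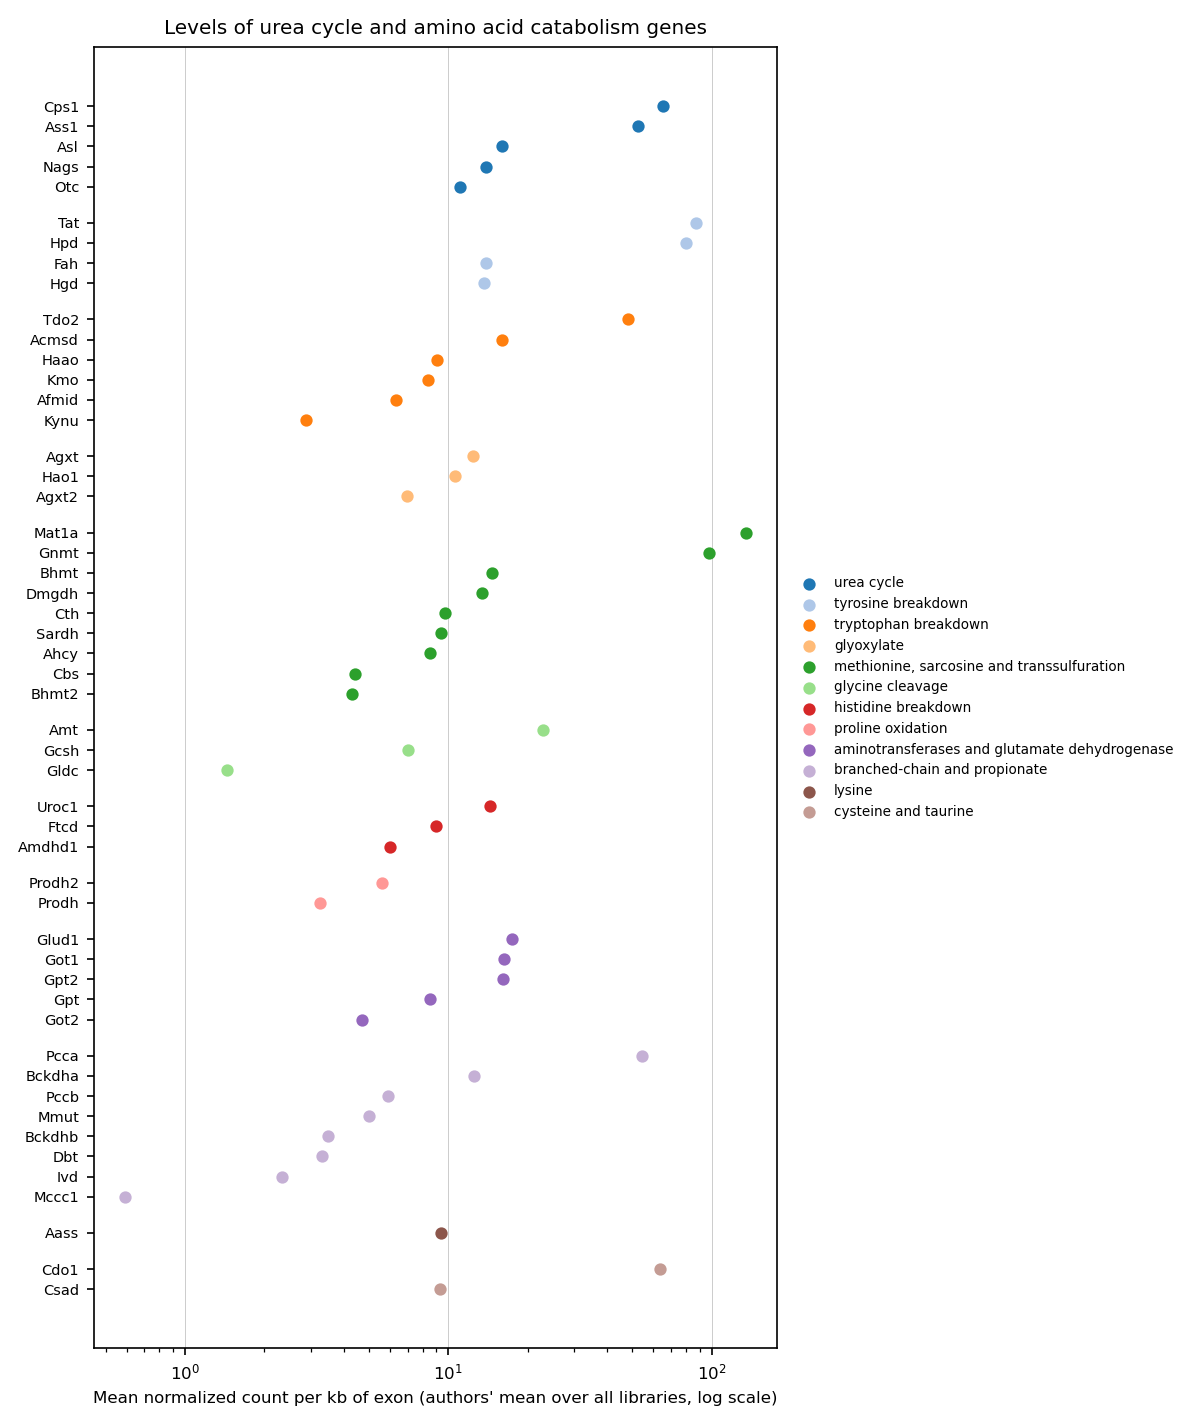
The plot gives the authors' mean normalized count per kb of exon on a log scale for 51 of the members, 1 point per gene, grouped and coloured by pathway. The points run from 0.591 for Mccc1 to 134.8 for Mat1a, and Pcca, at 54.4, stands apart from the other branched-chain and propionate genes.

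Of the urea cycle genes, *Cps1* had 65.1 counts per kb. *Cps1* (ENSMUSG00000025991, chromosome 1, 67123026 to 67231259 on the plus strand of GRCm38) encodes the matrix enzyme that makes carbamoyl phosphate and commits ammonia to the cycle. *Ass1*, which joins citrulline to aspartate, had 52.5. Both lay above *Asl*, *Nags* and *Otc*. *Asl*, which splits argininosuccinate, had 15.9 per kb, and *Nags*, whose product N-acetylglutamate activates carbamoyl phosphate synthetase, had 13.9. *Otc*, which forms citrulline in the matrix and is X-linked, was the lowest at 11.0. *Cps1* was thus 5.90-fold above *Otc*, its neighbour in the matrix, or 4.17-fold when each was divided by the length of its longest transcript. By that length *Nags*, at 14.5, lay below *Otc*, at 15.6.

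In tyrosine breakdown, the rows of the first enzymes were above those of the later ones. *Tat*, the aminotransferase that starts it, had 87.0 per kb, and *Hpd*, the dioxygenase of the next step, had 80.1. *Hgd*, which opens the ring of homogentisate, had 13.7, and *Fah*, the last enzyme and the one lost in hereditary tyrosinemia, had 14.0. *Gstz1x* is not a symbol of the table. A row for *Gstz1*, the maleylacetoacetate isomerase between *Hgd* and *Fah*, was on a separate list of pathway genes and had 17.8 per kb. The exons of *Gstz1* share 465 bp with a coding gene on the opposite strand.

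Among the tryptophan genes, too, the row of the first enzyme was the highest. *Tdo2*, the liver dioxygenase that opens the indole ring, had 48.2 per kb. *Acmsd*, which diverts the pathway from NAD synthesis, had 16.0, *Haao*, the dioxygenase that makes its substrate, had 9.08 and *Kmo*, a hydroxylase of the outer mitochondrial membrane, had 8.39. *Afmid*, which removes the formyl group after the first step, had 6.31 and *Kynu*, the kynureninase, had 2.89. Of the 3539 bp of *Afmid* exon, 1566 bp are shared with another gene on the same strand, so that its value per kb rests on a length that is partly not its own. The only other member with such bases is *Agxt2*, with 155 bp. *Tdo2* was thus 16.7-fold above *Kynu* per kb of exon and 8.52-fold above it by the longest transcript, a gap that depends on which transcript is counted.

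The methionine genes ran from 4.29 per kb to the highest level of all members. *Mat1a* (ENSMUSG00000037798, chromosome 14, 41105035 to 41124412 on the plus strand), the liver form of the enzyme that makes S-adenosylmethionine, was the highest of all members at 134.8 per kb. *Gnmt* was next at 97.7, though by the longest transcript *Hpd*, at 121.5, lay above *Gnmt*, at 113.8. The *Gnmt* enzyme spends S-adenosylmethionine on the methylation of glycine. *Ahcy*, which splits the S-adenosylhomocysteine that this leaves, had 8.52. *Bhmt*, which returns homocysteine to methionine with betaine, had 14.6, against 4.29 for *Bhmt2*, a neighbour on the same chromosome that uses S-methylmethionine. The mitochondrial enzymes that oxidise the products of choline and of glycine methylation, *Dmgdh* and *Sardh*, had 13.4 and 9.35. The transsulfuration enzymes *Cth* and *Cbs* had 9.75 and 4.42. Downstream of them, *Cdo1*, the cysteine dioxygenase, had 63.7 and *Csad*, which makes the precursor of taurine, had 9.32.

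Among the aminotransferases, *Got1*, in the cytosol, had 16.3 per kb and *Got2*, in mitochondria, had 4.69. *Gpt2*, in mitochondria, had 16.1 and *Gpt*, in the cytosol, had 8.48. The row of the mitochondrial form was thus the lower for the aspartate aminotransferases and the higher for the alanine aminotransferases. Both orders held with the longest transcript. *Glud1*, the glutamate dehydrogenase that releases ammonia in the matrix, had 17.5.

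The branched-chain and propionate genes had the lowest median of the groups of at least 5 genes, 4.24 per kb over 8 genes, and held 1 high member. *Pcca* (ENSMUSG00000041650, chromosome 14, 122534324 to 122891100 on the plus strand), the biotin-bearing subunit of propionyl-CoA carboxylase, had 54.4 per kb and *Pccb*, its partner subunit, had 5.92, a 9.20-fold gap between genes whose products are joined in 1 complex, or 15.5-fold by the longest transcript. The subunits of the branched-chain dehydrogenase were lower than *Pcca*, with 12.5 for *Bckdha*, 3.48 for *Bckdhb* and 3.32 for *Dbt*. *Mmut*, the B12-dependent mutase, had 5.0, *Ivd*, of leucine breakdown, had 2.34, and *Mccc1*, a subunit of methylcrotonyl-CoA carboxylase (ENSMUSG00000027709, chromosome 3, 35959312 to 36000678 on the minus strand), had 0.591 and was the lowest of all members. *Aass*, which starts lysine breakdown, had 9.42.

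The proteins of the glycine cleavage system are needed together, and the rows of their genes had unequal levels. *Amt*, the T protein, had 22.9 per kb, *Gcsh*, the H protein, had 7.0 and *Gldc*, the decarboxylase, had 1.44. The glyoxylate enzymes of peroxisomes, *Agxt* and *Hao1*, had 12.4 and 10.6, and *Agxt2*, of mitochondria, had 6.96. The histidine genes *Uroc1*, *Amdhd1* and *Ftcd*, which act in this order on urocanate and its products, had 14.4, 6.03 and 8.95. *Prodh2*, the hydroxyproline dehydrogenase, had 5.60 and *Prodh*, the proline dehydrogenase, had 3.26.

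Of a separate list of 44 genes of the same pathways, 42 had a row, and *Dao* and *Tdh* had none. Their median was 4.28 per kb, 27 had a mean normalized count of at least 10 and 3 were under 1. Among the 5 highest per kb were *Bcat2* at 298.5, *Gcdh* at 29.7, *Oat* at 29.0 and *Pcbd1* at 27.6. *Gcdh* encodes the glutaryl-CoA dehydrogenase of lysine and tryptophan breakdown, and *Oat* the ornithine aminotransferase. *Bcat2*, the branched-chain aminotransferase that is known for its low activity in hepatocytes, was above every member, and its exons share 622 bp with a noncoding gene on the opposite strand.

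That overlap bears on how the members can be read. Of the 52 members, 40 share no exon base with any gene on the opposite strand, 5 do so with a coding gene and 7 with noncoding genes alone. Of the 14527 coding rows of the table, 9895 share none, 2627 do so with a coding gene and 2005 with noncoding genes alone. The 40 had a median of 10.2 per kb, against 0.369 for the 9895 coding rows of the same kind, and all 40 lay above that value.

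**Figure D2:**
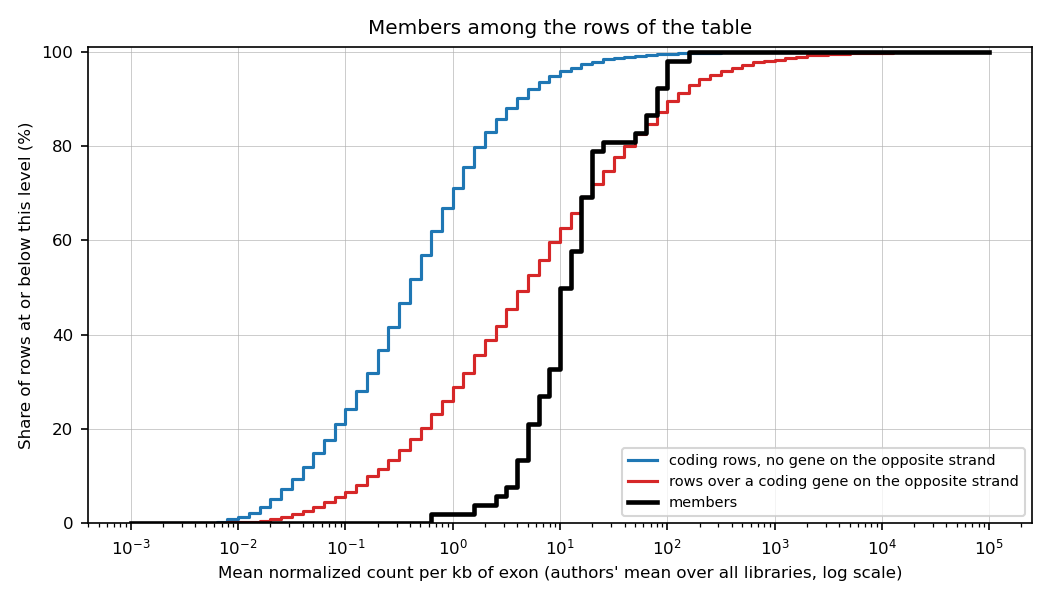
The plot gives the share of rows, in percent, at or below each mean normalized count per kb of exon (log scale), for the 52 members, for coding rows with no gene over their exons on the opposite strand and for rows over a coding gene on the opposite strand. The members' line lies to the right of both others over the lower part of the range, and their median of 10.2 compares with 0.369 and 4.25, while only rows of the other classes reach above 134.8.

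The noncoding genes that overlap member exons from the opposite strand were listed far above the members themselves. There are 9 such pairs, over 7 members, and in all 9 the noncoding gene was the higher per kb, with a median ratio of 157.7. In 8 of the 9 it was also the higher before division by length. Over all coding rows of the table, the noncoding gene was the higher per kb in 85.4% of 2174 such pairs, with a median ratio of 22.2. These pairs were looked at after the values had been seen.

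The widest gap per kb was at *Sardh*, where the noncoding gene was 1045.7-fold higher, with a mean normalized count of 50.8 against 2590.9 for *Sardhos* (chromosome 2, 27189382 to 27234710), which shares 188 bp of exon with it. *Bhmt* had 84.3 and *Gm15622* (chromosome 13, 93625382 to 93628633), on the opposite strand, had 3457.7, a level per kb 161.3-fold higher. *Dmgdh* had 45.7 and *AW495222* had 1159.6. All 3 noncoding genes were therefore listed well above the enzymes of the same methionine and choline route that they lie over.

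*Got2* had a mean normalized count of 22.6 and *Gm45760*, over its exons, had 1668. *Nags* had 39.3 and *Gm11586* had 228. *Acmsd* was the exception before division by length, with 45.4 against 32.2 for *2900009J06Rik*, which was 4.0-fold higher per kb. *Mccc1*, the lowest member per kb, had a mean of 6.47 and lies under 3 noncoding genes, *Gm15952* at 89.0, *B230207O21Rik* at 74.5 and *Mccc1os* at 51.4.

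Where a noncoding gene on the opposite strand lies over member introns alone, it was above the member in some pairs and below it in others. Of 9 such pairs with a value, the noncoding gene was the higher per kb in 4, with a median ratio of 0.687, and before division by length in 1. Over all coding rows these shares were 67.3% and 19.2% of 1892 pairs. The noncoding gene was 16.9-fold higher per kb at *Bckdhb*, where the small nuclear RNA gene *Gm29163* had a mean of 6.30 against 6.29. *Hgd* had a mean of 35.8 against 14.8 for *Gm46559*, which was 3.55-fold higher per kb. *Ahcy* was above *Gm45609* on both scales, with a mean of 23.9 against 9.33 and a level of 8.52 against 4.31 per kb.

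Coding genes over member exons were listed on either side. *B3gnt8* (chromosome 7, 25626654 to 25635100), a glycosyltransferase gene that shares 1171 bp of exon with *Bckdha*, had a mean normalized count of 5873 against 23.8, a level per kb 72.3-fold higher. *Tk1*, the thymidine kinase of dividing cells, had 69.8 against 22.3 for *Afmid*. The other 3 were lower than the member, with *Ggact* at 15.4 against 283.7 for *Pcca*, *Zfp740* at 9.46 against 35.7 for *Csad* and *Cenpq* at 3.17 against 18.9 for *Mmut*. The high level of *Pcca* beside *Pccb* is thus also that of a member with a coding gene over 241 bp of its exons, and the part of that gene in it was not tested.

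**Figure D3:**
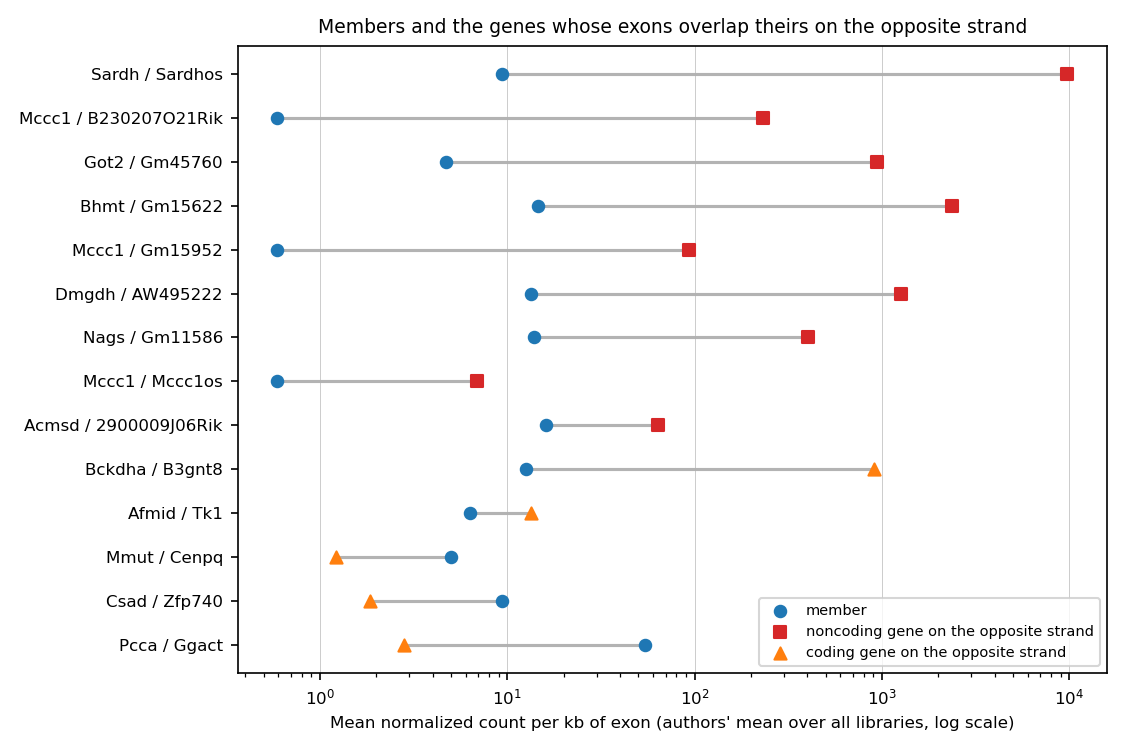
The plot gives, for each of the 14 pairs with shared exon bases, the authors' mean normalized count per kb of exon (log scale) of the member (circle) and of the gene on the opposite strand (square, noncoding; triangle, coding), joined by a line. All 9 squares lie to the right of their circle, and of the 5 triangles those of B3gnt8 and Tk1 do.

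The bases in question can be read in 3 of the pairs, with 1 shared stretch printed for each, chosen as lying wholly within the coding sequence of the member. *Bhmt* and *Got2* share further stretches that are not printed, and the whole overlap is 187 bp for *Bhmt*, 215 bp for *Dmgdh* and 434 bp for *Got2*. Each stretch is taken from GENCODE M21 transcripts, 5′ to 3′, as it stands in the RNA of the member and in that of the gene on the opposite strand, and the capitals mark that every base is exonic in both. In each pair the second sequence is the reverse complement of the first, so that a read from it carries the same genomic position and differs in strand alone. The stretches are chr13:93625382-93625488 (GRCm38; *Bhmt* on the minus strand, 107 bp), chr13:93715458-93715672 (*Dmgdh* on the plus strand, 215 bp) and chr8:95871891-95871995 (*Got2* on the minus strand, 105 bp).
Bhmt: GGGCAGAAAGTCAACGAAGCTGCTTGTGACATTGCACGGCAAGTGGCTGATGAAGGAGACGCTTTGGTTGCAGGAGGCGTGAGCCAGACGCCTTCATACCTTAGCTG
Gm15622: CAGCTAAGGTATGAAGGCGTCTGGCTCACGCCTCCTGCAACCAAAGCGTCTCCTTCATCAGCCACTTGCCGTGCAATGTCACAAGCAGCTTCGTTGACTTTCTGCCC
Dmgdh: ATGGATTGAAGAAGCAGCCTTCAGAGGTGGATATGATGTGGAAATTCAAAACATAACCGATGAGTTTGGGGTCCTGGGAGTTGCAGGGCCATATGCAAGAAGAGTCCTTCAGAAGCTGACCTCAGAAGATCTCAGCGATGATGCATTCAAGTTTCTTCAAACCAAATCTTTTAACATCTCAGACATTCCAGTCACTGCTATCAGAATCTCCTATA
AW495222: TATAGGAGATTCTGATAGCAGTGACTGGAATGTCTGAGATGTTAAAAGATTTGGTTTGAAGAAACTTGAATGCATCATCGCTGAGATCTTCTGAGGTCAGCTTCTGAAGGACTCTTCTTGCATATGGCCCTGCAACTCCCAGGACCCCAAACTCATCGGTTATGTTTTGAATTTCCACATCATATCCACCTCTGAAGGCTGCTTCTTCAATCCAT
Got2: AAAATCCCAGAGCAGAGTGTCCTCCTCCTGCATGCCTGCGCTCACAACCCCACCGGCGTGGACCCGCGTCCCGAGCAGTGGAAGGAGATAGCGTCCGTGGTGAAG
Gm45760: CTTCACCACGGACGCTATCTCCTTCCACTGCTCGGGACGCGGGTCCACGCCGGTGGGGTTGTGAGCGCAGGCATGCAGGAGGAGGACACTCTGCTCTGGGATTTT

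All shared bases of a pair, printed or not, make up 12.8% of the exons of *Gm15622*, 23.4% of those of *AW495222* and 24.4% of those of *Gm45760*. For *Sardhos* the share was 70.9% and for *Gm11586* it was 78.3%. A mean over a whole gene does not show where its reads lie, so how many of them fall on the shared bases was not tested. For the 12 members with a gene over their exons, reads of the member and reads of the other gene cannot be told apart without the strand setting, and for the other 40 the row may likewise hold reads of either strand.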

How the data were processed

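Liver poly(A) RNA from 32 mice was made into strand-specific libraries and sequenced as single-end reads. The authors used HISAT2 (version 2.1.0.13) for mapping to GRCm38, counted reads per gene with HTSeq-counts and ran DESeq2. The strand setting of HTSeq-counts and the DESeq2 version that the authors used are not given in the sources used here. The deposited values used are a signal, the mean normalized count of each gene over all libraries, printed here as the authors' means with no SD. The 30 other columns hold the authors' own 6 comparisons of a knockout with WT of the same age (log2 fold changes, standard errors, Wald statistics, *P* values and adjusted *P* values) and were not used. The tests between genotypes planned for values per library could not be made, and depth per library is unknown.

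Rows were matched to GENCODE M21 (GRCm38), with 21833 of 21880 gene identifiers found. The exon length is that of the union of annotated exons, and an overlap is at least 1 shared exon base. *Mut* was matched to *Mmut* through RefSeq synonyms (GRCm38.p6). The rule was to name every member with a row, the genes over its exons and the 5 highest of a list of other pathway genes, and 1 gene of each list is not reported here. The members and lists were chosen with earlier results of these data known. The interval calculations were tested on simulated data. Python 3.11.15, numpy 2.4.6, pandas 2.3.3 and matplotlib 3.10.9 were used.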

Additional observations from a re-analysis of the deposited data

How the results depend on the processing

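With a minimum mean normalized count of 5 or 20 in place of 10, 52 or 40 of the 52 members passed. The members' median of 10.2 counts per kb became 13.6 with the longest transcript as the length. It was the same to 3 digits among members with no gene over their exons on the opposite strand. A minimum mean of 1 could not change it, because the lowest member mean was 6.29. The count of 5 members with a coding gene over their exons became 3 with at least 100 shared bases, 8 with introns counted as well, and 12 with noncoding genes counted too, as each rule admits fewer or more genes. Noncoding genes above their member numbered 9 of 9 per kb, 8 of 9 without division by length and 7 of the 7 pairs with at least 100 shared bases, settings chosen after the values had been seen. No paired analysis was possible because the table has no column for a single library. The planned edgeR, DESeq2, low-count filter and leave-one-out fits were not run for the same reason. Depth limits could not be computed from a single mean per gene, and no value here has an error.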
